A study of Mus musculus with 6 samples.

Results

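Small nucleolar RNA (snoRNA) genes were taken from an FPKM table of whole mouse ovaries as every row annotated with the biotype snoRNA whose mean over 6 libraries was at least 1 FPKM (fragments per kilobase of gene, normalised to library size). Of 47205 rows in the table, 1331 were snoRNA genes, and 170 of these, 12.8%, met the rule and are called members here. Members were thus chosen by their measured FPKM, so that their level is a description of the choice and not a finding. The ovaries came from mice at 9 days post partum (dpp), with 3 wild-type (WT) libraries and 3 libraries of SRSF1 conditional knockout (cKO) mice, in which Srsf1, a splicing factor gene, had been deleted from granulosa cells, the somatic layer around each oocyte. The Cre driver, the strain and the alleles of Srsf1 that WT mice carried were not given in the sources used here, and nothing in the labels says that replicates came from separate animals. The p-values therefore measure only the spread between these libraries, which may be technical. RNA was taken from the whole ovary, so that fewer cells of a type and less RNA per cell cannot be told apart.

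Small nucleolar RNAs guide the chemical modification of other RNAs, chiefly ribosomal RNA. Box C/D snoRNAs carry a C box and a D box and guide ribose methylation by fibrillarin, and box H/ACA snoRNAs end in an ACA box and guide pseudouridylation by dyskerin. In mammals most of them lie in introns of host genes, many of which encode ribosomal proteins or translation factors or are long noncoding RNAs, and they are trimmed from the spliced intron. The imprinted chromosome 12 region between Dlk1 and Dio3 holds repeated C/D snoRNAs of the SNORD113/SNORD114 family inside the noncoding transcript Rian, which is expressed from the maternal chromosome and whose snoRNAs have no known ribosomal target.

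By the table's own descriptions, 92 members were box C/D, 70 were box H/ACA and 8 had no box named. Sequences were available for 165 of the 170 in the GENCODE M21 transcripts (GRCm38 build), and all 170 had an entry in the RefSeq gene table. The sequences below belong to the members on which the results turn, a choice made after seeing the values. They are printed 5′ to 3′ on the transcript strand. Several are longer than the row in which reads were counted, such as Snora33 (129 bases against 105) and Snora65 (130 against 118). A marked box may thus lie outside the counted bases. The capitals mark the C box core TGATGA within the first 20 bases and the D box CTGA within the last 20 bases of C/D snoRNAs, or the ACA that lies 3 bases before the end of H/ACA snoRNAs. The first 3 lie in Rian on chromosome 12, in the cluster that also holds rows described as SNORD113/SNORD114 family. These 3 are among the 8 members with no box named, and they were marked with the letters searched in C/D snoRNAs. The fourth, Gm24598, is described as of that family and lies on chromosome X. AF357359, which had no GENCODE transcript of its own, was read from the exon of Rian that contains it.
AF357359: atcatgacgacaaatttaattCTGAgatca
DQ267100: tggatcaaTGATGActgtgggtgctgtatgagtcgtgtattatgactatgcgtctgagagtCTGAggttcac
AF357425: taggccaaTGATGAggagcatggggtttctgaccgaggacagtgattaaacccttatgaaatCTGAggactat
Gm24598: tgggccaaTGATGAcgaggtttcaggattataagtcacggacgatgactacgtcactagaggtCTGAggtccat
The next 3 share the host gene Rps12, the next is the member of the host Gas5 with the most reads, and the last pair shows the members with the most reads of each box outside chromosome 12.
Snord100: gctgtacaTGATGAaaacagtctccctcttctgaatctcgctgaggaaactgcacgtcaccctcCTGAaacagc
LOC115487513 (SNORD101): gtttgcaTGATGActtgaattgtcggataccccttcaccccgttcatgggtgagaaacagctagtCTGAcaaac
Snora33: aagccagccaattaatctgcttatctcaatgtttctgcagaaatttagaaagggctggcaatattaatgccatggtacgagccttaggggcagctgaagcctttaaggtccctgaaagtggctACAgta
LOC115487677 (SNORD78): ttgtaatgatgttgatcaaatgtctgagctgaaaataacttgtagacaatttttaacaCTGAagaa
Snora65: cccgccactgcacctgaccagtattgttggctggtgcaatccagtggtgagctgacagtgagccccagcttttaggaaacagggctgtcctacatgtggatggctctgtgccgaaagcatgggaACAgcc
Snord96a: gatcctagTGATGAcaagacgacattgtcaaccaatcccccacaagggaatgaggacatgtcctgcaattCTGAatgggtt

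The box letters fitted the names of most members. CTGA stood in the last 20 bases of 97.8% of the 90 C/D members with a transcript, and TGATGA in the first 20 bases of 62.2%. ACA stood 3 bases before the end of 71% of the 69 H/ACA members. Over all 1558 snoRNA and small Cajal body RNA transcripts of GENCODE M21 the shares were 34.8% for CTGA, 21.3% for TGATGA and 19.3% for ACA, each searched on the transcript strand only. SNORD78 above shows a C/D member whose C box differs from the searched letters. The 3 sequences from Rian and that of Gm24598 were identical at 56.2% to 67.6% of aligned bases in each pair.

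A snoRNA gene is short, and an FPKM of it rests on few reads. The deposited values were whole multiples of 1 step per library after multiplication by gene length, in 100% of cases within 0.01 of a whole number, which gave back the reads behind each value. The libraries held 16.8 to 18.5 M recovered reads in WT and 18.6 to 18.7 M in cKO. In a gene of 100 bases 1 read was worth 0.52 to 0.581 FPKM, so that the rule asked for about 1.84 reads per library at that length. Members had a median length of 90 bases (28 to 246), against 3358 bases over all 14714 genes of the table at or above 1 FPKM. Over the 6 libraries together they had a median of 36.5 reads (6 to 427), against 3581 for all those genes. Fewer than 30 reads in total stood behind 73 members, and at least 60 behind 54. The member AF357359 shows the gap between the scales: its FPKM ranked 297th in the whole table and its reads 13598th.

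Not all of the remaining snoRNA rows were at 0, and the rule left few reads behind. Of the 1331 rows, 978 had 0 reads in every library, which allows up to 3 reads in a group, and 183 had reads but fewer than the rule asks, at most 19. Members held 9631 of the 10364 snoRNA reads, 92.9%, and the 10 members with the most reads held 27.7% of the members' reads. At the edge of the rule, Snord32a had 1, 5 and 0 reads in WT and 2, 1 and 0 in cKO and was kept, as were Gm26448 (SNORA73 family) and Gm24095 (SNORA25). Just outside it, LOC115489081 (SNORD29), at a mean of 0.99 FPKM, had 3, 1 and 0 reads in WT and 1, 2 and 0 in cKO. Gm25107 (SNORA35) at 0.977 FPKM and Snord15b at 0.954 FPKM followed, with 14 and 15 reads. Both sides of the edge thus hold the same kind of data, rows of 7 to 23 reads.

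**Figure D1:**
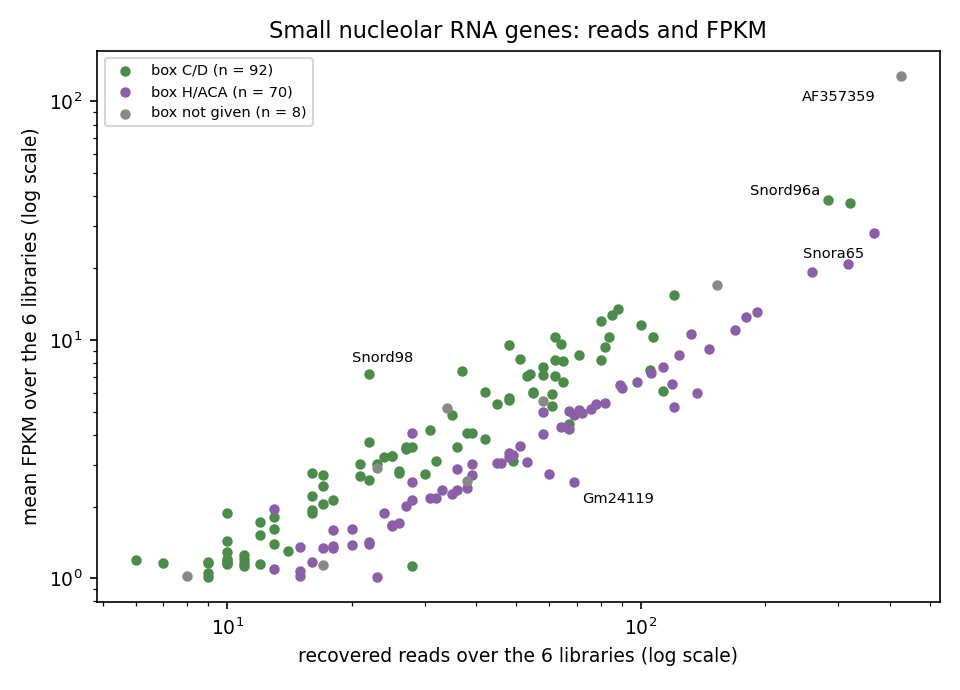
Each point is 1 of the 170 members, with its recovered reads over the 6 libraries on the x axis and its mean FPKM on the y axis, both on log scales and coloured by box. Members of equal FPKM differ in reads by their length: H/ACA members, with a median length of 132 bases, lie to the right of C/D members, with a median of 74, and AF357359 (30 bases) stands highest with 427 reads.

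Zeros were spread over the libraries and over both groups. At least 1 library was at 0 in 56 members, and 88 of the 1020 member values were 0, 8.63%. Of these members 24 had at least 2 zeros and 8 at least 3. The zeros numbered 11, 15 and 18 in WT replicates 1, 2 and 3 and 16, 14 and 14 in cKO replicates 1, 2 and 3, so that the groups overlapped. The mean of WT alone was under 1 FPKM in 20 members and that of cKO alone in 10, and 140 members were at 1 FPKM or more in both groups. Members that passed through 1 group alone had to differ between the groups, so no count or median over the members is read as support.

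Among members with a zero, 3 stood out by their mean FPKM. Gm24598, a C/D gene of the SNORD113/SNORD114 family at chrX:63540190-63540263, had 0, 16 and 39 reads in WT replicates 1, 2 and 3 and 0, 0 and 29 in cKO replicates 1, 2 and 3. It was thus present in some libraries of each group and at 0 in others, and its 3 zeros crossed the groups. It had no host gene, its nearest row was Slitrk4 on the other strand at 219239 bases, and 1 other snoRNA transcript matched it at 95% identity or more. Its level was 13.5 ± 14.3 FPKM for WT and 7.12 ± 12.3 FPKM for cKO (SD, n = 3 each), a spread as large as the mean. Snord2, in the translation factor gene Eif4a2, had 8, 9 and 0 reads in WT and 5, 3 and 6 in cKO. Gm23136 (SNORD16), in the ribosomal protein gene Rpl4, had 6, 10 and 8 reads in WT and 9, 9 and 0 in cKO. Apart from its library at 0, Snord2 had more reads in both WT libraries than in any cKO library, while in Gm23136 the libraries above 0 overlapped between the groups.

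The member with the most reads outside chromosome 12 was Snora65, an H/ACA snoRNA inside the ribosomal protein gene Rpl12 (chr2:32853313-32853430, GRCm39). It had 62, 43 and 52 reads in WT and 56, 98 and 56 in cKO, with cKO replicate 2 apart from the other 5 libraries and the groups overlapping. Other snoRNA transcripts match it at 95% identity or more, so its reads may be shared. Snord96a, a C/D snoRNA in Rack1, which encodes a scaffold protein of the small ribosomal subunit, had 44, 37 and 51 reads in WT and 54, 88 and 47 in cKO, again highest in cKO replicate 2. LOC115487273 (SNORA8), in Taf1d, which encodes a subunit of the RNA polymerase I selectivity factor, had 33, 54 and 58 reads in WT and 61, 73 and 38 in cKO. LOC115487282 (SNORA18), in the same host, had 39, 35 and 27 reads in WT and 18, 35 and 26 in cKO. Taf1d held 3 members, and neither of the pair named here separated the groups.

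The rest of the 10 members with the most reads varied in the same manner. Snora28, in the translation factor gene Eif5, had 37, 51 and 44 reads in WT and 52, 46 and 29 in cKO. LOC115489589 (SNORA71), in the noncoding host Snhg17, had 42, 31 and 35 against 30, 42 and 11. Snora43, in Snhg7, had 30, 21 and 24 against 18, 40 and 36. The libraries of the groups overlapped in all 3. LOC115487645, in Gas5, had 21, 19 and 24 reads in WT and 11, 47 and 31 in cKO, so that the cKO libraries lay on both sides of WT. Of these 10 members LOC115487677 (SNORD78) alone had groups that did not overlap, and it is described with its host.

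**Figure D2:**
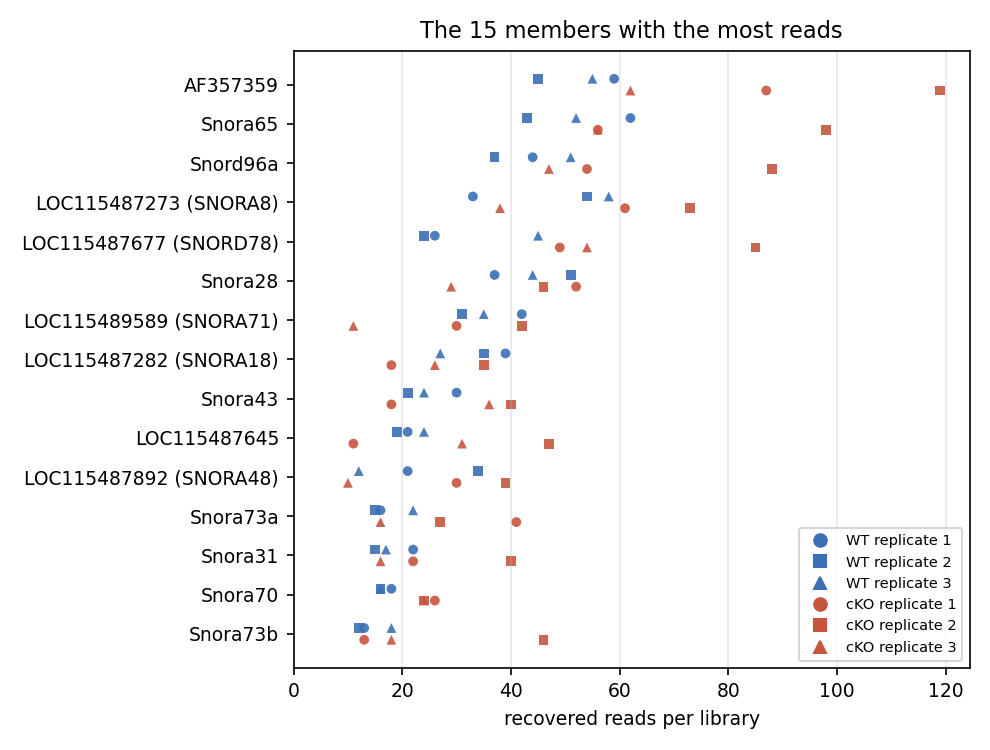
Recovered reads per library (x axis) of the 15 members with the most reads, 1 row each, with WT in blue, cKO in red and the replicate number by marker. cKO replicate 2 (red square) is the highest library in 10 of the 15 rows, reaching 119 reads for AF357359 and 98 for Snora65, and the other libraries of the groups mostly overlap.

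For the comparison of cKO with WT, limma was fitted to log2(FPKM + 1) over all 14714 genes at 1 FPKM or more, with Benjamini-Hochberg adjustment over all of them and a threshold of 0.05. No member passed in either direction: 0 of 170 were called higher and 0 lower, where 0.0068% of all genes tested were called higher and 0.0136% lower (0.0204% in all), and the smallest adjusted p of a member was 0.32. An unadjusted limma p under 0.05 was reached by 23 members higher in cKO, 13.5% against a background of 3.64%, and by 8 members lower, 4.71% against 2.7%, or 18.2% against 6.34% in all. These shares depended on the test. limma-voom on the recovered reads of the same genes, an alternative chosen after seeing the data, gave 4 members higher, 2.35% against 2.93%, and 1 lower, 0.588% against 3.27% (2.94% against 6.2% in all), with 0 called after adjustment. Nothing is read from the number of members with a small unadjusted p.

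The spread of the members was wider than that of other genes. Their log2 values had a median residual SD of 0.647, against 0.163 over all genes tested, while the prior SD that limma set for them from their level had a median of 0.191. Members in the middle of their FPKM range, 1.83 to 6.4 FPKM, had a median SD of 0.602 with 38 reads. Protein-coding genes in that same range had 0.163 with 1898 reads. The 54 members with at least 60 reads had 0.451 and the 116 with fewer had 0.787. The FPKM ranges of the groups did not overlap for 10 members higher in cKO, 5.88% against 6.37% of all genes tested, and for 8 lower, 4.71% against 5.89%, which is near the background. The log2 fold change was above 0 in 91 of 170 members, 53.5% against 50.0%, with a median of 0.06 against 0.00.

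Snord100, a C/D snoRNA in the ribosomal protein gene Rps12 (chr10:23661652-23661719), had the largest fold change among members that did not overlap and had at least 20 reads. It is 1 of the 20 members whose WT mean was under 1 FPKM, so that it met the rule through cKO alone and its direction follows from the choice. It had 1, 1 and 1 reads in the WT libraries and 4, 10 and 10 in cKO. Every cKO library was above every WT library, and cKO replicate 1 was the nearest to WT. Its level was 0.82 ± 0.0304 FPKM for WT and 6.26 ± 2.73 FPKM for cKO (log2 fold change 1.91 ± 0.298 SE, adjusted p by limma 0.345). cKO held 24 of its 27 reads, 88.9% (exact 95% interval 70.8% to 97.7%, counting error only, and given as a description). Without cKO replicate 1 the limma adjusted p was 0.0285, and over its alternatives it ran from there to 1.0. Snord100 was the 1 member called in any of the alternatives run.

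The other Rps12 snoRNAs were also higher in the mean, but their groups overlapped. LOC115487513 (SNORD101) had 12, 10 and 4 reads in WT and 13, 20 and 12 in cKO. Snora33 had 12, 5 and 3 in WT and 12, 14 and 12 in cKO. In both WT replicate 1 stood with cKO, and WT replicate 3 was lowest. Summed over the 3, Rps12 snoRNAs had 25, 16 and 8 reads in WT and 29, 44 and 34 in cKO, a gap of 4 reads between the nearest libraries. The sum includes Snord100, which met the rule through cKO alone, so the gap follows in part from the choice. The host had 201, 177 and 352 FPKM in WT and 311, 427 and 350 FPKM in cKO (limma adjusted p = 0.773), with WT replicate 3 among the cKO libraries. WT replicate 3 was thus the lowest WT library for the snoRNAs and the highest for the host.

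LOC115487677 (SNORD78), in the noncoding host Gas5 (chr1:160864554-160864619), had 26, 24 and 45 reads in WT and 49, 85 and 54 in cKO. WT replicate 3 and cKO replicate 1 were 4 reads apart. Its level was 26.6 ± 9.04 FPKM for WT and 50.3 ± 14.7 FPKM for cKO (log2 fold change 0.91 ± 0.271 SE, adjusted p by limma 0.741). Gas5 held 7 members, and they spanned 13 to 283 reads, a range of 21.8-fold within 1 host transcript. Snord47 of the same host had 4, 0 and 1 reads in WT and 2, 5 and 1 in cKO. Gas5 had 100 ± 11.1 FPKM for WT and 122 ± 13.4 FPKM for cKO (limma adjusted p = 0.773).

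Snord22, in the noncoding host Snhg1, had 8, 11 and 8 reads in WT and 16, 39 and 23 in cKO. The groups did not overlap, and cKO replicate 2 was highest (log2 fold change 1.19 ± 0.28 SE, adjusted p by limma 0.713). Snhg1 held 7 members, of which 6 had higher values in cKO in the fit, where 50.0% of all genes tested did. Among the 6, LOC115489084 (SNORD26) met the rule through cKO alone, so its direction follows from the choice. Nothing is read from this count. Reads of the 7 members summed to 25, 62 and 27 over the WT libraries and to 54, 90 and 57 over the cKO libraries. WT replicate 2 lay above a pair of cKO libraries, so that the sums overlapped. LOC115489078 (SNORD25) of this host had 7, 21 and 5 reads in WT and 15, 12 and 5 in cKO, with no order by group. Snora61, in Snhg12, had 2, 3 and 2 reads in WT and 6, 5 and 10 in cKO (limma adjusted p = 0.686). Snora70, in the ribosomal protein gene Rpl10 on chromosome X, had 18, 16 and 16 reads against 26, 24 and 24 (log2 fold change 0.45 ± 0.102 SE, adjusted p by limma 0.713). Snora70 was thus a small difference with close replicates. AF357399, in Rps16, had 6, 8 and 5 reads in WT and 14, 16 and 9 in cKO. Snord21, in Rpl5, had 13, 14 and 18 against 24, 20 and 18, where the last WT and the last cKO library had equal reads and separated in FPKM only through their denominators (10.4 in both after rounding).

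Of the 8 members that were lower in cKO without overlap, 5 lay in protein-coding hosts. Gm24494 (SNORD45), in Rabggtb, which encodes a subunit of an enzyme that adds lipid groups to Rab proteins, had 18, 14 and 10 reads in WT and 5, 7 and 8 in cKO. Its level was 9.7 ± 3.12 FPKM for WT and 4.38 ± 1.06 FPKM for cKO (log2 fold change -0.97 ± 0.242 SE, adjusted p by limma 0.713). cKO held 32.3% of its reads (exact 95% interval 20.9% to 45.3%). Gm23201 (SNORD12/SNORD106), in the noncoding host Zfas1, had 12, 15 and 15 reads in WT and 4, 7 and 12 in cKO, so that the nearest libraries had equal reads. Snord71, in Ap1g1, had 6, 3 and 6 against 2, 1 and 3, and Gm22571 (SNORD18), in Rpl4, 7, 4 and 7 against 3, 4 and 2. Gm22574, in Cox7c, had 10, 5 and 7 reads against 5, 3 and 4. Groups in these rows were separated by a few reads or by none, and the smallest limma adjusted p among them was 0.713.

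A further pair of members did not overlap but had fewer than 20 reads, and is named after its values were seen. LOC115487308 (SNORD105) had 1, 1 and 0 reads in WT and 3, 4 and 2 in cKO, and also met the rule through cKO alone. Gm22300 (SNORA44), which had no host and lay opposite Tmem245, had 4, 5 and 5 reads in WT and 1, 0 and 1 in cKO (limma adjusted p = 0.345). With so few cKO reads Gm22300 met the rule through WT alone, so its direction follows from the choice too. Gm22504 (SNORA43), also without a host and opposite Timm10b, had 6, 6 and 8 reads against 6, 5 and 5. Where strand was not used in counting, reads of such members and of the gene on the other strand cannot be told apart.

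**Figure D3:**
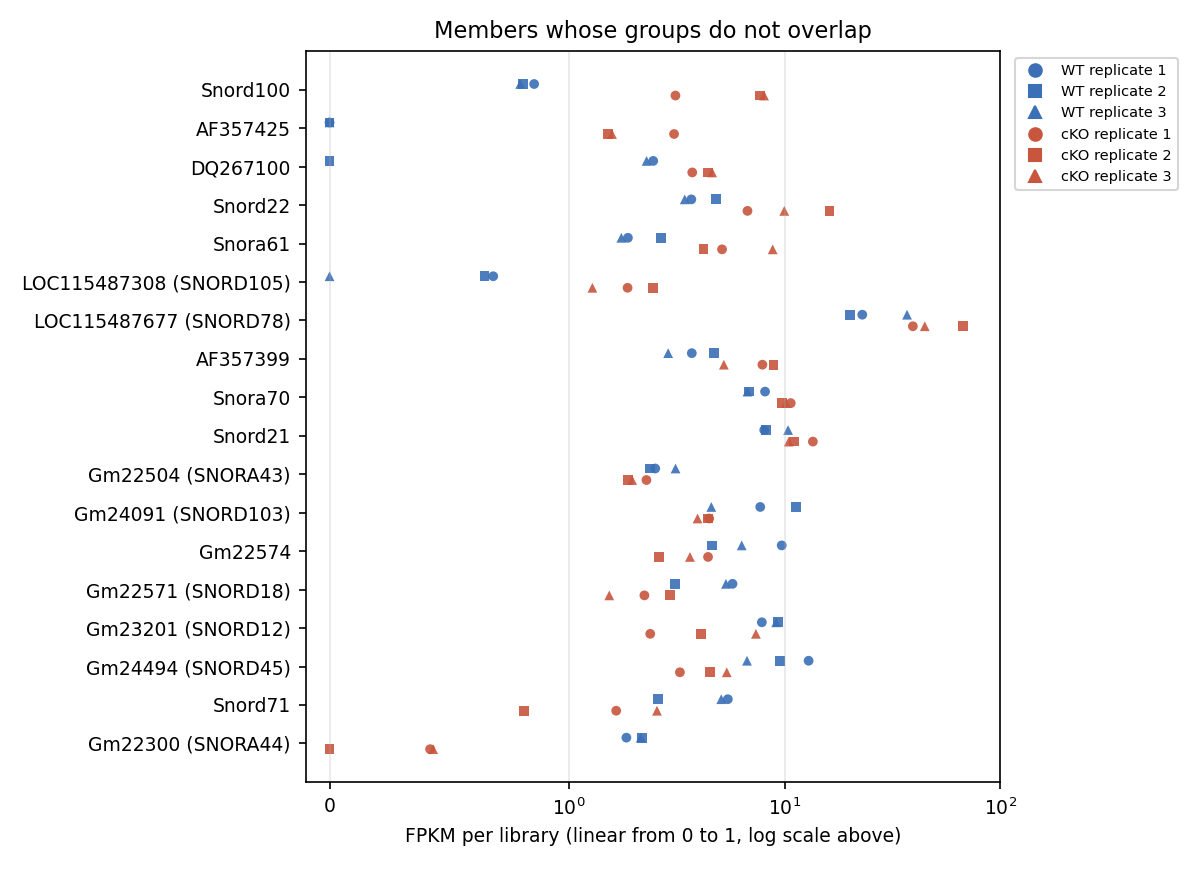
FPKM per library (x axis, linear from 0 to 1 and logarithmic above) of the 18 members whose groups did not overlap, ordered by fold change, with WT in blue and cKO in red. The 10 upper rows are higher in cKO and the 8 lower rows lower, and in several, such as Snord21 and Snord71, the nearest libraries of the groups almost touch.

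The chromosome 12 cluster was set apart as the snoRNA rows between Dlk1 and Dio3. It held 19 rows, of which 8 had 0 reads in every library and 11 had reads. All 11 lay inside Rian, and all 8 empty rows lay downstream of its annotated end. Only 3 rows were members: AF357359, DQ267100 and AF357425. AF357359 (chr12:109617143-109617172) is annotated with 30 bases only and lies within an exon of Rian. It had 59, 45 and 55 reads in WT and 87, 119 and 62 in cKO, and 114, 82.5 and 99.2 FPKM against 153, 206 and 113 FPKM. The FPKM of cKO replicate 3 fell just short of WT replicate 1, so that the groups overlapped, and cKO replicate 2 was highest (log2 fold change 0.64 ± 0.229 SE, adjusted p by limma 0.768). cKO held 62.8% of its reads (exact 95% interval 58% to 67.4%), where the library denominators alone would give 51.2%.

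The other members of the cluster rested on few reads. DQ267100 (chr12:109616051-109616121) had 3, 0 and 3 reads in WT and 5, 6 and 6 in cKO (log2 fold change 1.22 ± 0.458 SE, adjusted p by limma 0.768). AF357425 (chr12:109602446-109602514) had 0 reads in all 3 WT libraries and 4, 2 and 2 in cKO (limma adjusted p = 0.32). With 3 reads as the most that a WT group at 0 allows, its level was at least 2.54-fold higher in cKO, a bound that leaves out the counting error of the cKO reads. AF357425 met the rule through its cKO reads alone, so its direction follows from the choice. The groups did not overlap in either row, and the nearest libraries were 2 reads apart in both. In the 16 rows of the cluster below the rule, WT libraries had 1, 7 and 1 reads and cKO libraries 5, 14 and 2, with cKO replicate 2 again highest and the groups overlapping. Over all 19 rows, WT had 63, 52 and 59 reads and cKO 101, 141 and 72, so that the groups did not overlap. cKO held 64.3% of these reads (exact 95% interval 59.9% to 68.6%), and 75.4% (62.7% to 85.5%) without AF357359, where WT had 15 reads and cKO 46.

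Summed on the authors' common scale, the 3 members of the cluster had 66.2, 45.5 and 57.7 reads in WT and 93.3, 122 and 70.1 in cKO, a log2 ratio of 0.75, and of 0.53 without cKO replicate 2. The sum includes AF357425, which met the rule through cKO alone, so the gap between the groups follows in part from the choice. The 167 members outside the cluster had 1451, 1551 and 1336 reads in WT and 1490, 1960 and 1357 in cKO, a log2 ratio of 0.15. Without cKO replicate 2 that ratio was -0.02. No p is given for these sums, because the members were chosen with results of these data known. This library stood apart in more than snoRNAs. It also had the most microRNA gene reads, scaled to library total as reads per 1 M, 76.2 against 50.2 to 69.1 in the other libraries. Its small nuclear RNA gene reads, 21.94 per 1 M, lay within the 17.95 to 23.47 of the other libraries. So did its share of long noncoding RNA reads, 1.13% against 0.999% to 1.23%. Its counts differed from those of the other cKO libraries by a chi-square per degree of freedom of 37.2 and 37.7, where the other replicate pairs lay between 15.8 and 19.5. The part of this library in the results was not tested.

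**Figure D4:**
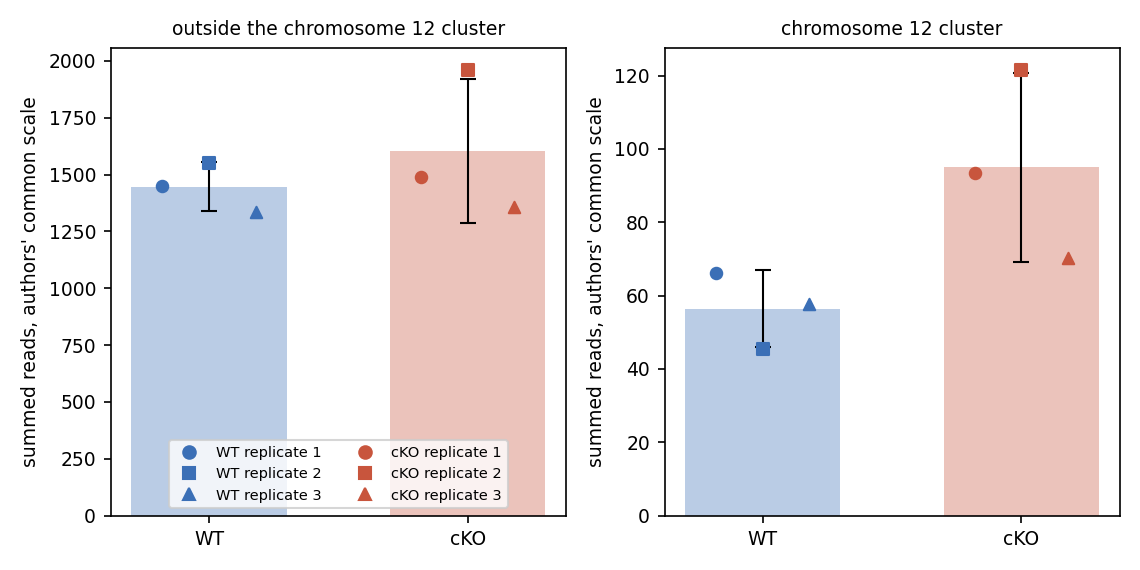
Summed reads of members per library on the authors' common scale (y axis, starting at 0), outside the chromosome 12 cluster (167 members, left) and in it (3 members, right); bars are group means, error bars SD over 3 libraries and markers the libraries. Outside the cluster cKO replicate 2 stands alone at 1960 and the other cKO libraries lie within the WT range, and in the cluster all 3 cKO libraries, from 70.1 to 122, lie above the WT libraries, from 45.5 to 66.2. The cluster sum includes AF357425, which met the rule through cKO alone, so this gap follows in part from the choice.

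Rian, the host of the 3 cluster members, did not overlap between the groups either and was higher in cKO. It stood at 17.7, 16.7 and 17.6 FPKM in WT and 20.5, 29.2 and 18.7 FPKM in cKO, highest in cKO replicate 2 (log2 fold change 0.35 ± 0.161 SE, adjusted p by limma 0.773). The reads of AF357359 came to 5.4%, 4.14% and 4.72% of the number counted for Rian in WT and to 6.28%, 5.92% and 5.03% in cKO, while its length is 0.837% of that of Rian. These shares overlapped between the groups. Of the 5 tested genes of the region, 4 had higher means in cKO and 1 lower. limma called 0 of them in either direction, and 1, Dlk1, had an unadjusted p under 0.05. Mirg, the microRNA host next to Rian, stood at 1.22 ± 0.283 FPKM for WT and 2.01 ± 0.654 FPKM for cKO, and Dlk1, a paternally expressed gene of a Notch-like transmembrane protein, at 10.1 ± 0.9 and 17.2 ± 5.15 FPKM (limma adjusted p = 0.744). Both were without overlap between groups, while Meg3 (6.8 ± 1.15 and 6.5 ± 0.965 FPKM) and Dio3 (5.12 ± 0.845 and 5.89 ± 1.98 FPKM) overlapped. Rtl1 was below the filter.

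A host gene, a row on the same strand that contains the whole snoRNA, was found for 159 members. These lay in 95 hosts, of which 37 held at least 2 members. By host, 43 members lay in ribosomal protein genes, 12 in translation factor genes, 40 in long noncoding RNAs other than Rian, 61 in other protein-coding genes and 3 in Rian, and 11 had no host. Summed reads on the common scale were 359 ± 39.9 in WT and 425 ± 82.7 in cKO for ribosomal protein hosts, 161 ± 28.5 and 177 ± 29.8 for translation factor hosts, 378 ± 17 and 475 ± 108 for noncoding hosts and 473 ± 54.4 and 477 ± 104 for other coding hosts (SD, n = 3 each). In each of these classes the SD was wider in cKO, and cKO replicate 2 was the highest library. The 11 members without a host went from 75.3 ± 19 to 49.2 ± 11.1, with 9 of 11 lower in the mean, and cKO replicate 3 (60.1) above WT replicate 1 (53.4).

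Members and hosts are set side by side as a description only, across genes that are not independent and share libraries and depth. The log2 FPKM of member and host had a Pearson r of 0.131 and a Spearman rho of 0.154 over 159 members. The log2 fold changes had r = 0.177 and rho = 0.212 over 157, and r = 0.294 and rho = 0.277 over the 52 with at least 60 reads. Only 8 of 159 members stood above their host in FPKM, AF357359 among them. Of 93 hosts tested, 65 had higher and 28 lower means in cKO, where 50.0% of all genes tested had a log2 fold change above 0. limma called 0 hosts. An unadjusted limma p under 0.05 was reached by 3 hosts, all of them higher. Over all genes tested 3.64% were higher and 2.7% lower at that p. Nothing is read from these counts of hosts. Reads within a snoRNA interval may come from the host RNA, and the files do not separate the sources.

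Of the members, 76 lay inside an annotated exon of a longer GENCODE M21 transcript, 56 of them in a transcript of the retained intron type. The other 94 were not found in any such exon and are called outside. Exons were not searched where the RefSeq length of a member differed from its length here, and any such member counts as outside. This split was chosen after seeing the values, and the difference between the parts was not tested. Inside exons 51 members were higher and 25 lower in the mean, and the median log2 fold change was 0.21. Without overlap 9 of these 76 were higher, 11.8% against 6.37% of all genes tested, and 1 was lower, 1.32% against 5.89%. Members that met the rule through 1 group alone are counted in these shares. Among the 9, Snord100, AF357425 and LOC115487308 met it through cKO alone, so their direction follows from the choice. Nothing is read from the distance of these shares to the background. Outside exons 40 were higher and 54 lower, with a median of -0.09. Without overlap 1 of these 94 was higher, 1.06%, and 7 were lower, 7.45%. Among the 7, Gm22300 met the rule through WT alone, so its direction follows from the choice. Over all genes tested, 50.0% had a log2 fold change above 0. The summed reads gave log2 ratios of 0.29 inside and 0.00 outside, and of 0.10 and -0.13 without cKO replicate 2. Members inside exons had more reads, a median of 52 against 29.

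**Figure D5:**
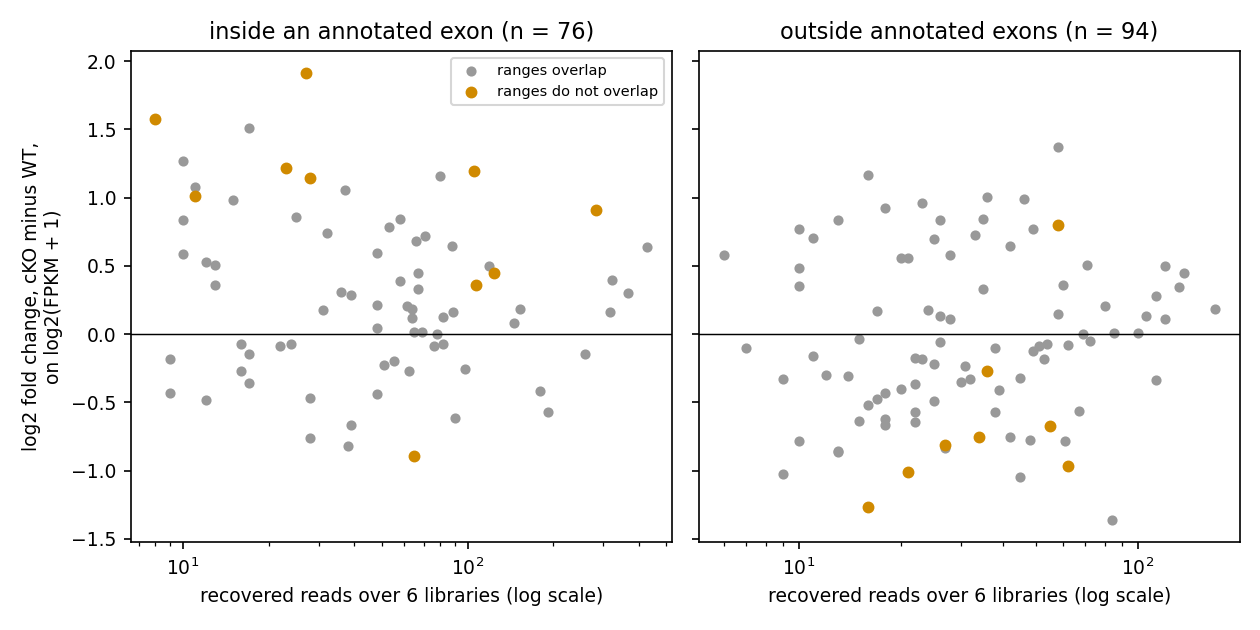
Log2 fold change, cKO minus WT on log2(FPKM + 1) (y axis), against recovered reads over the 6 libraries (x axis, log scale) for members inside (left, n = 76) and outside (right, n = 94) annotated exons; members whose groups do not overlap are in orange. Of the orange points, 9 of those above 0 lie in the left panel and 7 of those below 0 in the right.

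None of the genes for proteins that bind and assemble snoRNAs was called. All 4 core proteins of box C/D particles had slightly higher means in cKO, with 0 called by limma and 0 at an unadjusted p under 0.05. Fbl, the methyltransferase fibrillarin, stood at 47.7 ± 1.27 FPKM for WT and 53.7 ± 9.08 FPKM for cKO, and Nop58 at 38.6 ± 2.34 and 40.2 ± 0.924 FPKM. Of the 4 core proteins of H/ACA particles 3 had higher means and 1 lower, again with 0 called and 0 at an unadjusted p under 0.05. Dkc1, the pseudouridine synthase dyskerin, stood at 21 ± 0.594 and 20.8 ± 1.8 FPKM, and Nop10 at 32 ± 5.71 and 39.4 ± 5.78 FPKM. Among 15 assembly and processing genes 9 had higher and 6 lower means, with 0 called and 0 at an unadjusted p under 0.05. Coil, the scaffold of Cajal bodies, where small nuclear and nucleolar particles mature, stood at 10 ± 0.701 and 8.34 ± 1 FPKM and had the smallest unadjusted limma p of the list, 0.0634.

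Across the series, Srsf1 stood at 39.9, 49.6 and 46.3 FPKM in WT and 20.3, 26.9 and 21.4 FPKM in cKO, below every WT library (limma adjusted p = 0.32). limma called 0 of the cell type markers in either direction, and the lists are given by their means and sums. Granulosa cell markers (6 of 6 lower in the mean, 3 at an unadjusted p under 0.05) summed to 572 to 637 FPKM in WT and 448 to 526 FPKM in cKO. Macrophage and leukocyte markers (6 of 6 higher, 6 at an unadjusted p under 0.05) summed to 24.5 to 33.7 and 52.9 to 121 FPKM, and surface epithelium markers (3 of 3 higher, 2 at an unadjusted p under 0.05) to 76.5 to 92.6 and 118 to 143 FPKM. Endothelium markers (3 of 3 higher) summed to 72.7 to 75.6 and 79.9 to 90.1 FPKM. The sums of these 4 lists did not overlap between the groups. Oocyte markers (7, with 2 higher and 5 lower) stayed within 1767 to 1923 FPKM in WT and 1759 to 1927 FPKM in cKO. The sums of oocyte markers overlapped, as did those of theca and stroma (785 to 1145 FPKM in WT, 917 to 1269 FPKM in cKO), oviduct (3.61 to 5.5 and 4.67 to 11.4 FPKM) and blood markers (168 to 311 and 143 to 518 FPKM). Of the oviduct markers 1, Pax8, was tested, and it was higher at an unadjusted limma p under 0.05. The oocyte, theca and stroma, endothelium and blood lists had 0 at that p. Over all genes tested 3.64% were higher and 2.7% lower at that p, and 50.0% had a log2 fold change above 0. Nothing is read from these counts of markers. No marker of any list was at 0 in a library, and the part of the marker differences in the snoRNA values was not tested.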

How the data were processed

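RNA sequencing values of whole ovaries at 9 dpp were read from a single table of 6 libraries (3 WT, 3 cKO), grouped by the sample titles. The authors deposited FPKM per gene. Per the submitters' processing notes the tool was HISAT2 2.0.5 and the genome builds were GRCm39 and mm10, with no role stated. The table's chromosome accessions are those of GRCm39, which all positions follow. Read counter, annotation release and strandedness were not given in the sources used here, so reads of a snoRNA, its host, an antisense gene or a near-identical copy (25 members had a copy at 95% identity or more) may be shared.

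Reads were recovered as FPKM times gene length over each library's step, and sums were kept on the scale that the authors' library denominators set. Tests used log2(FPKM + 1), on which changes of low genes come out too small. cKO was compared with WT by limma 3.58.1 in R 4.3.3 (lmFit, eBayes with a trend, two-sided) over every row with a mean of at least 1 FPKM, with Benjamini-Hochberg adjustment over all 14714. Fold changes are cKO minus WT, with the moderated SE. Shares of reads have exact (Clopper-Pearson) 95% intervals, which cover counting error only, and a group at 0 allows 3 reads. The gene test was also run on reads simulated from the mean reads of these genes, with the same expected size for every library. It recovered most genes changed by known folds with the right sign. Those genes were drawn only from rows with more reads per library than any member had on average, so recovery of changed members was not tried. The test made more false calls than the threshold allows, mainly in rows with few reads.

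The members and lists were chosen with earlier results of these data known. Members named are the 10 with the most reads, up to 8 on each side with the smallest p among members of at least 20 reads whose groups do not overlap, those of the chromosome 12 cluster, the 3 highest among members with a zero, and the 3 rows on each side of the rule's edge. Of these members 1 is plotted but not described in the text. Alternatives were pseudocounts of 0.1 and 0.5, other filters, scalings and priors, library weights, a replicate block, limma-voom on recovered reads, and leaving out each library in turn. Nothing was left out of the 6 libraries.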

Additional observations from a re-analysis of the deposited data

How the results depend on the processing

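The count of members called higher was 0 and that of members called lower was 0 in each alternative, except that without cKO replicate 1 the count higher was 1 (Snord100, log2 fold change 2.28, limma adjusted p = 0.0285). Leaving out each library in turn thus gave 0 to 1 higher and 0 lower. The log2 ratio of the summed cluster members was 1.98 without the member with the most reads, which leaves 31 reads. These are the reads of DQ267100 and AF357425, and AF357425 met the rule through cKO alone, so 1.98 follows in part from the choice. The median over the 3 members, 1.22, is the fold change of DQ267100 alone. The ratio of the summed cluster members was 0.53 to 0.93 when each library was left out in turn, and outside the cluster -0.02 to 0.25. Of 500 fold changes of 31 named members, 488 kept their direction and 12 did not. With library weights these were Snora28 (0.022), Snora43 (-0.23) and LOC115487645 (-0.49). The others came from leaving out 1 library, which gave -0.051 to 0.40 for LOC115487273 (below 0 without WT replicate 1 and, at -0.016, without cKO replicate 2), -0.30 to 0.074 for Snora28 (above 0 without cKO replicate 3), -0.0042 to 0.51 for Snora43 and -0.22 to 0.74 for LOC115487645 (both below 0 without cKO replicate 2). For Snord2 the range was -0.83 to 0.70 (below 0 without WT replicate 3 and, at -0.0012, without cKO replicate 3), for Gm23136 -1.18 to 0.090 and for Gm26448 -0.25 to 0.23 (both above 0 without cKO replicate 3). The cause was not tested. With the replicate number as a block, 0 members were called higher and 0 lower (smallest adjusted p 0.74). Same-numbered libraries did not deviate together (correlations 0.18, -0.08 and -0.057), so the number is not taken to pair them. limma-voom over the same genes and sums over members at a WT mean of 1 FPKM or more were chosen after seeing the data. Those sums gave a log2 ratio of 0.13 over 150 members, against 0.18 over all 170.

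Members had a median of 36.5 reads in all, and the smallest difference callable at that depth was not tested. That 0 were called does not show that snoRNAs did not change.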
